A study of Mus musculus with 6 samples.

Results

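The genes described here are 6 aquaporins, the membrane channels for water and in some cases glycerol, and the 3 subunits of the epithelial sodium channel (ENaC). They are Aqp1, Aqp3, Aqp4, Aqp7, Aqp8, Aqp11, Scnn1a, Scnn1b and Scnn1g, found by symbol among the 19938 genes of a mouse gene array. Each of the 9 had 1 probe set that names a single gene, and all 9 were measured in whole ileum, the distal segment of small intestine, from 6 mice with 1 array per mouse. The 3 mice labelled Gata6 KO were Villin-CreERT2 animals crossed to carry GATA6 flox/flox alleles, so that tamoxifen removes the transcription factor Gata6 in intestinal epithelium. The 3 control mice carried Villin-CreERT2 alone. Mice were 6 to 8 weeks old when given tamoxifen at 100 mg/ml on 5 days, in both groups as the design states it, and ileum was taken 28 days later, at 10 to 12 weeks of age. The Villin promoter drives the Cre in epithelium, so muscle, vessels and immune cells of the segment keep Gata6.

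Aquaporins sit in cell membranes as tetramers, with a water pore in each subunit. Aqp3 and Aqp7 also pass glycerol. ENaC is built from alpha, beta and gamma subunits, encoded by Scnn1a, Scnn1b and Scnn1g. It lets sodium enter across the apical membrane, and water follows. In the gut of rodents the channel is best known from the distal colon, where aldosterone raises its activity through the mineralocorticoid receptor, while the small intestine takes up most of its sodium by exchangers and by cotransport with glucose.

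Values are log2 signals per probe set, where 1 unit is a doubling. Signals of different genes on an array are not comparable as amounts, so levels are compared between mice and not between genes. The median of all genes on an array lay between 4.07 and 4.11 on KO-labelled arrays and between 4.03 and 4.06 on control arrays. Genes were tested with limma, a linear model that pools variance over genes, and a gene was called at an adjusted p under 0.05 over all 19938. The arrays of the KO-labelled group and those of the control group correlated at 0.987 to 0.992 within groups over all probe sets, against 0.980 to 0.984 between groups. Gata6 itself read 6.93, 6.81 and 6.86 on the KO-labelled arrays, against 6.31, 6.33 and 6.50 on control arrays, 1.41-fold higher (limma adjusted p = 0.0162), which goes against the label. Whether its probes fall inside the deleted exons is not known here, so the label could not be checked with it, and directions below are those of arrays labelled Gata6 KO. Control replicate 3 alone carried the signals of a male, with Eif2s3y of the Y chromosome at 5.30, against 0.27 to 0.61 on the other arrays, and Xist at 2.31, against 7.39 to 7.81 on the KO-labelled arrays and 7.57 and 7.65 in the other controls. Results are therefore also given without it where that matters.

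Of the 9 genes Scnn1a rose in the KO-labelled arrays by limma, none fell and 8 did not pass. Over all genes 4.99% were called higher and 3.25% lower, 8.24% in all, so 1 call among 9 is near the background share. The median log2 fold change of the 9 was -0.13, against -0.004 over all genes. The groups did not overlap for 4 of the 9, namely Scnn1a, Aqp3, Aqp4 and Aqp7, against 29.3% of all genes. An unadjusted limma p below 0.05 was found for 5 of the 9, and for 24.7% of all genes. The means of 4 were higher and of 5 lower in the KO-labelled arrays. All 5 of the lower ones are aquaporins.

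**Figure D1:**
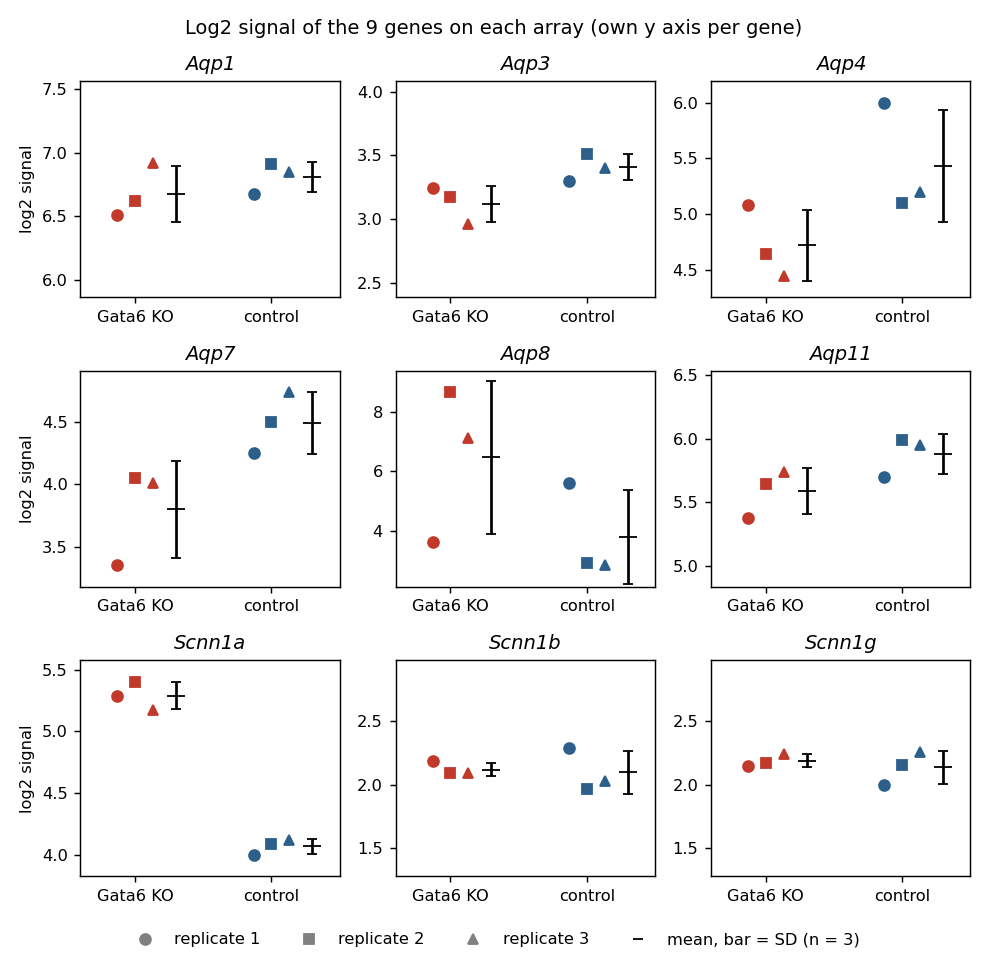
Log2 signal of the 9 genes on each of the 6 arrays (y axis, own scale per gene), with Gata6 KO left of control; symbols mark the replicate, and black bars the mean and SD (n = 3). Scnn1a lies between 5.17 and 5.40 on the KO-labelled arrays and between 4.0 and 4.12 on control arrays, and Aqp8 spans 2.84 to 8.67 over all arrays.

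Scnn1a encodes the alpha subunit, which ENaC needs to form a conducting channel. It read 5.29, 5.40 and 5.17 on the KO-labelled arrays, against 4.0, 4.09 and 4.12 on control arrays. Every KO-labelled array was above every control array, with a gap of 1.05 between the groups. The mean was 5.29 ± 0.11 in KO-labelled ileum and 4.07 ± 0.06 in control ileum (SD, n = 3 each). The log2 fold change was 1.22 (SE 0.09, 95% interval 1.01 to 1.42), a 2.32-fold higher signal, with a limma adjusted p of 7.43e-04. Among the 995 genes called higher, Scnn1a was at place 25 by p and at place 116 by size of change. Control replicate 1, at 4.0, was just below the median of its array (4.06), and the other controls were just above theirs (4.03 and 4.04). The control level of this gene is thus near the median of all genes. The call held without each array in turn, with log2 fold changes of 1.16 to 1.27 and limma adjusted p of 0.0032 to 0.00805. Without control replicate 3, the array with male signals, it was 1.24 (limma adjusted p = 0.0075).

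The beta and gamma subunits did not pass and stayed dim in both groups. Scnn1b, the beta subunit, read 2.19, 2.09 and 2.09 on the KO-labelled arrays, against 2.29, 1.97 and 2.03 on control arrays. Its log2 fold change was 0.03 (SE 0.10, limma adjusted p = 0.907), with a 95% interval of -0.21 to 0.27. Scnn1g, the gamma subunit, read 2.15, 2.17 and 2.24 on the KO-labelled arrays, against 2.00, 2.16 and 2.26 on control arrays. Its log2 fold change was 0.05 (SE 0.09, limma adjusted p = 0.787), with a 95% interval of -0.16 to 0.26. Both groups overlapped for both genes, and all 6 arrays were below their median for each. The sign of the change in Scnn1b turned with median centring of the arrays (-0.02), so no direction is given for it. A dim signal on an array cannot show whether the transcript is made at a low level or not at all. Scnn1g and Scnn1b are next to each other on chromosome 7 among protein-coding genes of the RefSeq table, while Scnn1a is on chromosome 6.

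**Figure D2:**
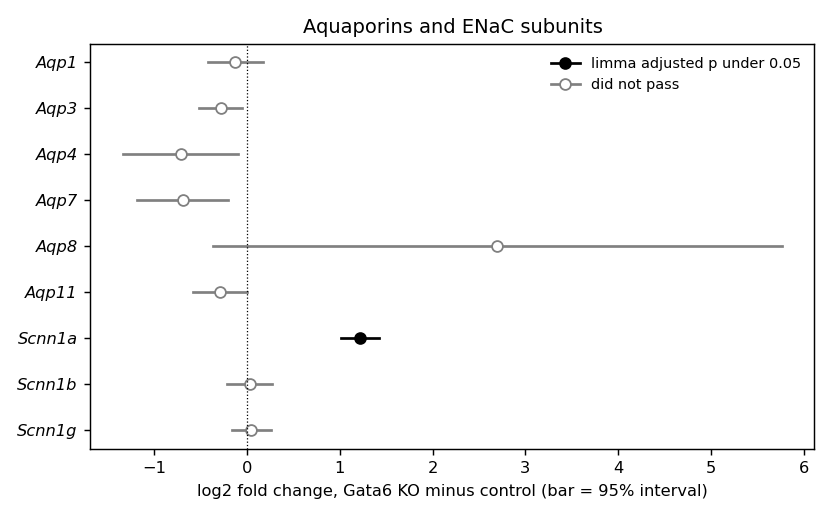
Log2 fold change of each of the 9 genes, Gata6 KO minus control (x axis), with its 95% interval; filled symbols passed at a limma adjusted p under 0.05. Scnn1a, at 1.22, is the 1 gene that passed, and the interval of Aqp8 runs from -0.37 to 5.76.

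Aqp8, a water channel described in absorptive epithelium of the rat small intestine and colon, had the largest mean difference and the widest spread of the 9. It read 3.62, 8.67 and 7.13 on the KO-labelled arrays, against 5.60, 2.89 and 2.84 on control arrays. Replicates 2 and 3 of the KO-labelled group were high, replicate 1 was not, and control replicate 1 stood above the other controls and above that KO-labelled array. The groups thus overlapped. Gata6 KO replicate 1 and control replicates 2 and 3 were below the median of their array, so the difference and the spread rest partly on dim values. The mean was 6.47 ± 2.59 in KO-labelled ileum and 3.78 ± 1.58 in control ileum (SD, n = 3 each). The log2 fold change of 2.69 (SE 1.30) did not pass (limma adjusted p = 0.253), and its 95% interval of -0.37 to 5.76 takes in no change as well as a large one. The pooled within-group SD of Aqp8 was 2.14, exceeded among the 19938 genes by Xist alone, at 2.17. A single array moved the value: the log2 fold change was 4.12 without Gata6 KO replicate 1 (limma adjusted p = 0.079) and 1.60 without Gata6 KO replicate 2 (limma adjusted p = 0.547).

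The promoter windows of Aqp8 and Aqp7 are shown because Aqp8 had the widest spread and the Aqp7 windows hold letters that GATA factors bind. RefSeq windows of 300 bases (250 before to 50 after an annotated start, GRCm38.p6) were used for 7 of the 9 genes. There were 8 windows in all since Aqp7 has 2 starts, and none was used for Aqp4 or Scnn1a. Aqp8 is at chr7:123462044-123462343 (plus strand), and Aqp7 at chr4:41048087-41048386 and chr4:41047913-41048212 (both minus strand), which share 126 bases. They run 5′ to 3′, and capitals mark the letters GATA on the strand shown.
Aqp8: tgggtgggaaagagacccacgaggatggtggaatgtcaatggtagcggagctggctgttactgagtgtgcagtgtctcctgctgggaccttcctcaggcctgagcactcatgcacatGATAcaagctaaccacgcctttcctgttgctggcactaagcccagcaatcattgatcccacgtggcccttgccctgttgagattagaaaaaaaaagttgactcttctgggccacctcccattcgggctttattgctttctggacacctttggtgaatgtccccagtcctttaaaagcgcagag
Aqp7, first window: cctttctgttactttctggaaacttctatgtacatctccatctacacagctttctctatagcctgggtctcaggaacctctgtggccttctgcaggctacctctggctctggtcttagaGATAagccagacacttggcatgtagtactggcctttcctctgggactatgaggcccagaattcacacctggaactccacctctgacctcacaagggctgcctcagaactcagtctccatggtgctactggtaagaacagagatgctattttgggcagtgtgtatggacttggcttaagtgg
Aqp7, second window: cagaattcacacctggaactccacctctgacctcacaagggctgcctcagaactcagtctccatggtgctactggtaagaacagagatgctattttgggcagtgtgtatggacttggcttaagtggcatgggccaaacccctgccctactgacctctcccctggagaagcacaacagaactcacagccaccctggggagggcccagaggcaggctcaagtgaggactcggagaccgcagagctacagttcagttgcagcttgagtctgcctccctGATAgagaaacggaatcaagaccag
Both strands were searched for GATA, and for a longer form with an A or a T before it and an A or a G after it, so each longer match also counts as a match to GATA. The first Aqp7 window holds AGATAA from base 119 and the second holds TGATAG from base 275, counted from the first base shown. Aqp8 holds the letters GATA from base 118, and no longer form. Of all 32851 windows, 29.8% hold a longer form and 57.9% hold GATA, and among the 8 windows these numbers were 2 and 5. A match is a description of letters and not a binding site, and its absence from a window says nothing about the factor.

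Aqp7 is an aquaglyceroporin, best known for releasing glycerol from adipocytes. It read 3.35, 4.05 and 4.01 on the KO-labelled arrays, against 4.25, 4.50 and 4.74 on control arrays. Every KO-labelled array was below every control array, by at least 0.20, and all 3 were below the median of their array. The log2 fold change was -0.69 (SE 0.21), which did not pass (limma adjusted p = 0.0954). With genes at or above the median level alone in the fit the adjusted p was 0.0494, and it was 0.113 to 0.258 without each array in turn. Among 5 measured adipocyte markers none was called by limma (1 at an unadjusted p below 0.05), all 5 had higher means in the KO-labelled arrays, and their summed linear signal was 261 to 312 there and 115 to 274 in controls. Control replicate 2 had the lowest of these sums, and its Aqp7 signal was between those of the other controls. The part of adipocytes in the Aqp7 values was not tested. Aqp3, the neighbour of Aqp7 on chromosome 4 and a basolateral glycerol and water channel of epithelia, read 3.24, 3.17 and 2.96 on the KO-labelled arrays, against 3.30, 3.51 and 3.4 on control arrays. The groups were 0.07 apart, and the log2 fold change of -0.28 (SE 0.10) did not pass (limma adjusted p = 0.142). All 6 arrays were below their median for Aqp3, so the size of this difference is uncertain.

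Aqp4 is a water channel of basolateral membranes in gastric and intestinal epithelium and of glia in the brain. It read 5.08, 4.64 and 4.45 on the KO-labelled arrays, against 6.00, 5.10 and 5.20 on control arrays. The groups were separated by 0.03, and control replicate 1 was the high array. The log2 fold change was -0.71 (SE 0.26, limma adjusted p = 0.152), and it was -0.43 without control replicate 1 (limma adjusted p = 0.262). Of 4 enteric glia markers none was called by limma (1 at an unadjusted p below 0.05), and their summed signal was 31.8 to 32.5 in KO-labelled and 31.3 to 35.5 in control ileum.

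Aqp1 and Aqp11 overlapped between the groups. Aqp1, the water channel of capillary endothelium and red blood cells, read 6.51, 6.62 and 6.92 on the KO-labelled arrays, against 6.68, 6.91 and 6.85 on control arrays. Its log2 fold change was -0.13 (SE 0.13) at a limma adjusted p of 0.578, with a 95% interval of -0.42 to 0.17, and it ranged from -0.25 without Gata6 KO replicate 3 to -0.04 without Gata6 KO replicate 1. The endothelial markers likewise gave no call among 9 in limma (1 at an unadjusted p below 0.05), with summed signals of 296 to 306 in KO-labelled and 282 to 308 in control ileum. Aqp11, an aquaporin of intracellular membranes, read 5.38, 5.64 and 5.74 on the KO-labelled arrays, against 5.70, 5.99 and 5.95 on control arrays. The log2 fold change of -0.29 (SE 0.12) did not pass (limma adjusted p = 0.201), and it ranged from -0.38 without control replicate 1 to -0.19 without Gata6 KO replicate 1. Replicate 1 was the lowest array of its group for both Aqp1 and Aqp11 in either group. In whole tissue, fewer cells of a type and less RNA per cell cannot be told apart.

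The remaining aquaporins were not called by limma. An unadjusted limma p below 0.05 was found for 3 of the 6, and for 24.7% of all genes. All 6 were measured, and 2 had higher and 4 lower means in KO-labelled ileum. Each had a mean over the 6 arrays below the median level of all genes, so the size of these differences is uncertain. Aqp5, a water channel of glandular secretory cells, read 3.48, 3.67 and 3.38 on the KO-labelled arrays, against 3.91, 3.79 and 4.09 on control arrays. Its log2 fold change of -0.42 (SE 0.11) missed the threshold (limma adjusted p = 0.0652) and passed after median centring (-0.46, adjusted p = 0.0344) and quantile normalization (-0.44, adjusted p = 0.0451). Aqp2, the vasopressin-controlled channel of the kidney collecting duct, had a log2 fold change of -0.39 (SE 0.13), and Mip, the lens aquaporin, one of -0.29 (SE 0.11), with limma adjusted p of 0.117 and 0.150. Aqp6, Aqp9 and Aqp12 lay between -0.02 and 0.12, and the 5 acid-sensing channels Asic1 to Asic5, relatives of the ENaC subunits, between -0.25 and 0.03. None of the 5 passed in limma, and 0 had an unadjusted p below 0.05. All 5 were likewise dim, with means below the median level of all genes.

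Regulators of ENaC were compared next. Hsd11b2, which inactivates glucocorticoid so that aldosterone can act on its receptor, rose 3.53-fold in the KO-labelled arrays. It read 7.19, 7.53 and 7.52 there, against 5.64, 5.70 and 5.45 on control arrays. The log2 fold change was 1.82 (SE 0.12, limma adjusted p = 6.39e-04), and it kept its call in each of 15 alternative settings. Nr3c2, the mineralocorticoid receptor itself, named after its values were seen, read 6.38, 6.50 and 6.71 on the KO-labelled arrays, against 6.04, 5.84 and 5.59 on control arrays. It rose by 0.71 on the log2 scale (SE 0.14, limma adjusted p = 0.0248), but lost the call in 8 of 15 alternative settings, with an adjusted p of up to 0.133. Those 8 include leaving out any array other than control replicate 1. The groups did not overlap for Hsd11b2, by 1.49, or for Nr3c2, by 0.34.

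Of the 14 genes of aldosterone and ubiquitin control, 5 rose and 1 fell, 8 missed the threshold, and the median change was 0.21 on the log2 scale. Over all genes 4.99% were called higher and 3.25% lower, and the list was chosen with earlier results of these data known. The kinases Wnk4 and Stk39 (SPAK), which act in a cascade on sodium and chloride transporters, rose by 0.66 (SE 0.12, limma adjusted p = 0.0173) and 0.65 (SE 0.12, limma adjusted p = 0.0197). Nedd4, a ubiquitin ligase, rose by 0.45 (SE 0.09, limma adjusted p = 0.0241), again named after its value was seen. Its relative Nedd4l, the ligase best known for removing ENaC from the membrane, read 6.99, 7.07 and 7.12 on the KO-labelled arrays, against 6.78, 6.83 and 6.79 on control arrays, a change of 0.26 that missed the threshold (SE 0.07, limma adjusted p = 0.0776). The gene that fell was Usp2, a deubiquitinase that can reverse ENaC ubiquitination. It read 5.10, 5.15 and 5.16 on the KO-labelled arrays, against 6.04, 5.85 and 5.84 on control arrays, and so dropped by 0.77 on the log2 scale (SE 0.08, limma adjusted p = 0.00282). Among the 8 that did not pass, the kinase Sgk1 had a log2 fold change of -0.08 (SE 0.19) and Tsc22d3 (GILZ) one of -0.34 (SE 0.21), with limma adjusted p of 0.831 and 0.358. The number called higher was 2 without Gata6 KO replicate 1 and 1 without Gata6 KO replicate 2, Gata6 KO replicate 3 or control replicate 3. Hsd11b2 and Usp2 kept their calls in every such fit, while Wnk4, Stk39 and Nedd4 each lost theirs in some, with adjusted p of up to 0.0824, 0.0785 and 0.0979 without 1 array.

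**Figure D3:**
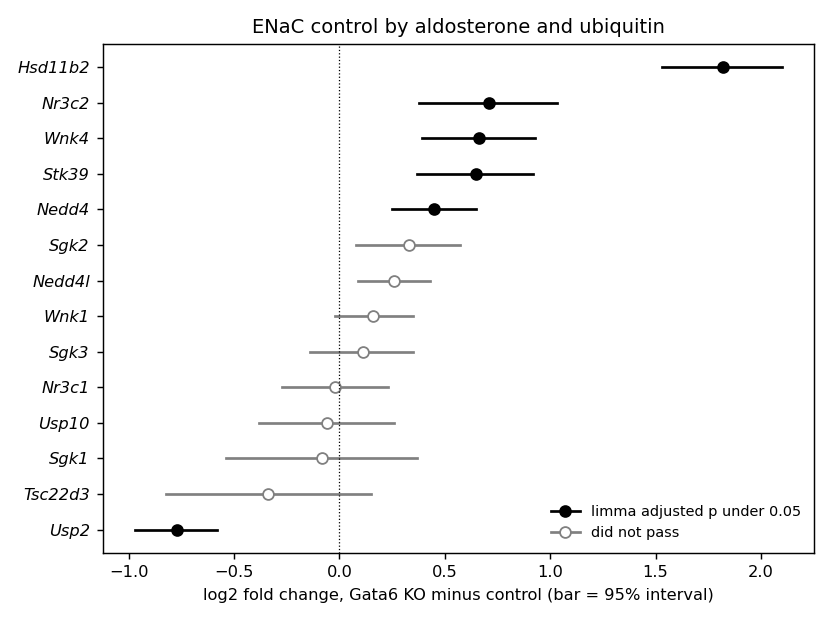
Log2 fold change, Gata6 KO minus control (x axis), of the 14 genes of aldosterone and ubiquitin control of ENaC, with 95% intervals; filled symbols passed at a limma adjusted p under 0.05. Hsd11b2, at 1.82, lies to the right of the others, and Usp2, at -0.77, is the 1 that fell.

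Of 7 measured proteases and inhibitors that act on ENaC, 1 rose and none fell, against 4.99% and 3.25% of all genes. The 1 that rose was Tmprss2, a transmembrane serine protease, by 0.46 (SE 0.08, limma adjusted p = 0.0191). It lost that call without Gata6 KO replicate 2 (0.0846), Gata6 KO replicate 3 (0.0743) or control replicate 3 (0.0651). The channel-activating protease Prss8 had a value of -0.06 (SE 0.20) at a limma adjusted p of 0.888, and Tmprss4 had a log2 fold change of 0.07 (SE 0.13). Of 8 measured beta subunits and FXYD partners of the sodium pump none was called by limma. An unadjusted limma p below 0.05 was found for 4 of the 8, and for 24.7% of all genes. Among them Fxyd4, which aldosterone raises in the colon, read 2.61 to 2.81 on the KO-labelled arrays and 2.64 to 3.02 on control arrays (limma adjusted p = 0.508).

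A list of 9 ion transport genes of intestinal epithelium held sodium carriers (Slc5a1, Slc9a2, Slc9a3 and Slc9a8), anion transporters (Slc26a3, Slc26a6 and Cftr), the basolateral cotransporter Slc12a2 and the scaffold Slc9a3r1. Of the 9, 1 rose, 3 fell and 5 did not pass, against 4.99% of all genes called higher and 3.25% lower. Slc5a1, the sodium-glucose cotransporter, read 8.63, 8.50 and 8.65 on the KO-labelled arrays, against 9.71, 9.63 and 9.68 on control arrays. It fell by 1.08 on the log2 scale (SE 0.08, limma adjusted p = 7.43e-04). The anion exchanger Slc26a6 fell by 1.99 (SE 0.32, limma adjusted p = 0.0121), and Slc9a3r1, a scaffold of the brush border, dropped by 0.52 (SE 0.09, limma adjusted p = 0.0167). The sodium-proton exchanger Slc9a2 rose by 0.55 (SE 0.08, limma adjusted p = 0.00839), while Slc9a3, the main apical exchanger, read 5.70 to 6.36 in KO-labelled and 6.02 to 6.25 in control ileum and did not pass (limma adjusted p = 0.761). Without Gata6 KO replicate 2 or control replicate 3 only Slc5a1 was called lower, so 1 gene fell in place of 3. Without Gata6 KO replicate 1 the number called higher was 2.

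Glycerol genes, the metabolic partners of Aqp3 and Aqp7, were also mixed. Of 7 measured, Mgll rose and Gpd1, Gpd2 and Lipe fell, against 4.99% of all genes called higher and 3.25% lower. Mgll, which releases glycerol from monoglyceride, read 6.33, 6.58 and 6.63 on the KO-labelled arrays, against 5.54, 5.12 and 5.44 on control arrays (log2 fold change 1.14, SE 0.13, limma adjusted p = 0.00387). Gpd1, which links glycolysis to glycerol phosphate, read 6.71, 6.69 and 7.18 on the KO-labelled arrays, against 8.10, 7.85 and 8.16 on control arrays (log2 fold change -1.18, SE 0.15, limma adjusted p = 0.00584). The mitochondrial Gpd2 and the lipase Lipe had limma adjusted p of 0.0489 and 0.0488, and the number called lower was 1 without Gata6 KO replicate 2, Gata6 KO replicate 3, control replicate 1 or control replicate 3. Without control replicate 1 the number called higher was 2.

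The labelled tissue was compared with its markers. Of 6 enterocyte markers, on a list named ileal enterocyte, 5 fell, against 3.25% of all genes. Slc10a2, the ileal bile acid transporter, did not pass, at 9.20 to 9.55 in KO-labelled and 9.32 to 9.75 in control ileum. The 5 were the bile acid binder Fabp6, the disaccharidase Sis, the apolipoproteins Apoa1 and Apoa4, and Mttp, which loads lipoproteins, with log2 fold changes of -4.18 for Mttp to -2.76 for Fabp6. Of 7 colonocyte markers 4 rose in limma and none fell, against 4.99% of all genes called higher and 3.25% lower. Those that rose were Hsd11b2, Sult1c2 (3.36), Slc6a14 (1.07) and Cyp2c55 (4.23 on the log2 scale). The summed colonocyte signal was 7788 to 8086 on the KO-labelled arrays, against 3466 in control replicate 1 and 1243 and 1362 in the other controls. Car1, a carbonic anhydrase abundant in colon, did not pass (limma adjusted p = 0.0722) and read 12.20, 12.18 and 12.14 on the KO-labelled arrays, against 10.96, 5.68 and 6.87 on control arrays. The colonocyte sums add linear signals, so on the KO-labelled arrays and control replicate 1 they rest largely on Car1, the brightest of the 7 there. Control replicate 1, the control array with the highest Aqp8, also had the highest colonocyte sum among controls, mainly through Car1. Gata6 KO replicate 1, with Aqp8 at 3.62, had a colonocyte sum of 7788, against 8086 and 8081 on the other KO-labelled arrays. Resting largely on Car1, this sum cannot show how the other markers differed there. Cyp2c55 (9.62), Sult1c2 (7.11), Slc26a3 (7.41) and Hsd11b2 (7.19) had their lowest KO-labelled value on that array. Car1, Car4 and Slc6a14 did not. Hsd11b2 of the ENaC control list and Slc26a3 of the ion transport list are themselves among the 7 markers. Their values are thus used in both places, and the marker list is not separate from the result for Hsd11b2. The part of these markers in the results for Aqp8 and Scnn1a was not tested.

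General epithelial markers gave 1 higher, Krt19 (0.33), and 1 lower, Vil1 (-0.41), among 6, with summed signals of 8912 to 9986 in KO-labelled and 8541 to 9437 in control ileum. Krt19 lost its call in 11 of 15 alternative settings, and Vil1 in 7. The members of the smooth muscle list all had higher means in KO-labelled ileum, with Tagln the 1 of 7 called. An unadjusted limma p below 0.05 was found for 5 of the 7, and for 24.7% of all genes. Their summed signals were 3695 to 4653, against 3155 to 3605 in controls. Among mesothelium markers 2 of 4, Msln and Upk3b, rose, and 3 of 4 had an unadjusted p below 0.05. Their sums were 132 to 160 in KO-labelled and 97.8 to 114 in control ileum. Pdpn was the 1 of 4 lymphatic endothelium markers called. Of 15 alternative settings, Tagln lost its call in 6, Msln and Pdpn each in 7, and Upk3b in 2. No red blood cell or lymphocyte marker was called by limma, among 2 and 5 measured, with 1 of each at an unadjusted p below 0.05. The part of any of these lists, or of the enteric glia and endothelium lists, in the aquaporin values was not tested either.

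**Figure D4:**
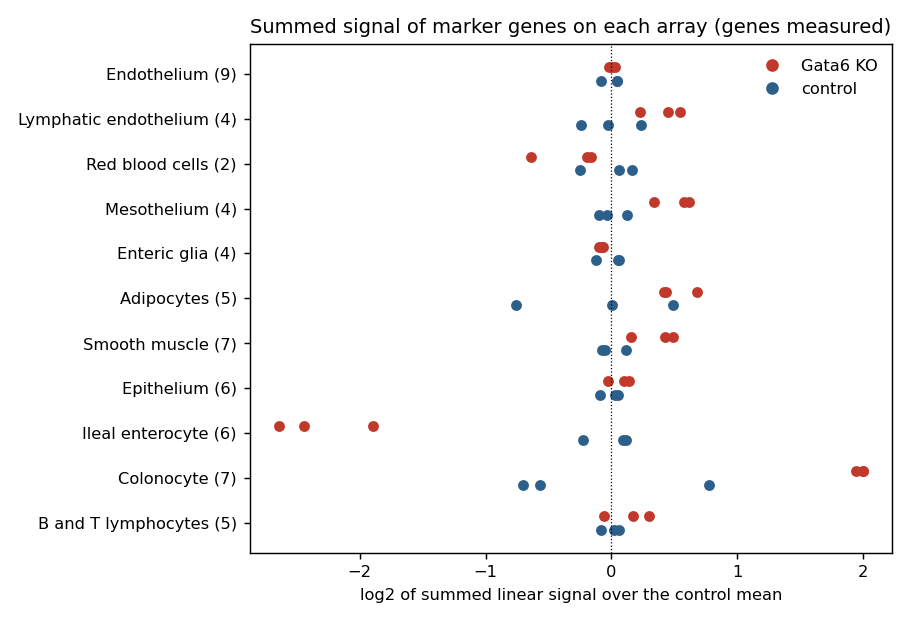
Log2 of the summed linear signal of each marker list on each array over the mean of the 3 control arrays (x axis), with the number of genes measured; Gata6 KO is drawn above control in each row. The colonocyte sums are 7788 to 8086 on the KO-labelled arrays and 1243 to 3466 on control arrays, and the ileal enterocyte sums 917 to 1544 and 4882 to 6192. On the KO-labelled arrays and control replicate 1 the colonocyte sums rest largely on Car1.

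The genes whose values over the 6 arrays lay closest to Scnn1a, by Euclidean distance after centring each gene on its mean, were Sh3kbp1, Slc45a3 and Slc36a4. Their distances were 0.20, 0.22 and 0.23. Sh3kbp1, an adaptor protein of receptor endocytosis, read 5.16, 5.22 and 5.02 on the KO-labelled arrays, against 3.91, 4.14 and 4.12 on control arrays. The log2 fold changes of the 3 were 1.08, 1.14 and 1.05. Being chosen for likeness, these are a description only. The same measure was applied to Aqp8 after its values were seen. Its nearest genes were Car2, a cytosolic carbonic anhydrase, at 2.27, Sult1a1, a sulfotransferase, at 3.21, and Cbr3, a carbonyl reductase, at 3.24. The distance is not scaled and grows with the spread of a gene, which is wide for Aqp8. These distances can therefore not be set against those of Scnn1a as a measure of likeness. Car2 read 5.92, 8.24 and 7.79 on the KO-labelled arrays, against 5.18, 3.77 and 3.24 on control arrays. Replicate 1 was the lowest KO-labelled array and the highest control array for Car2, as it was for Aqp8, but for Car2 the groups did not overlap.

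**Figure D5:**
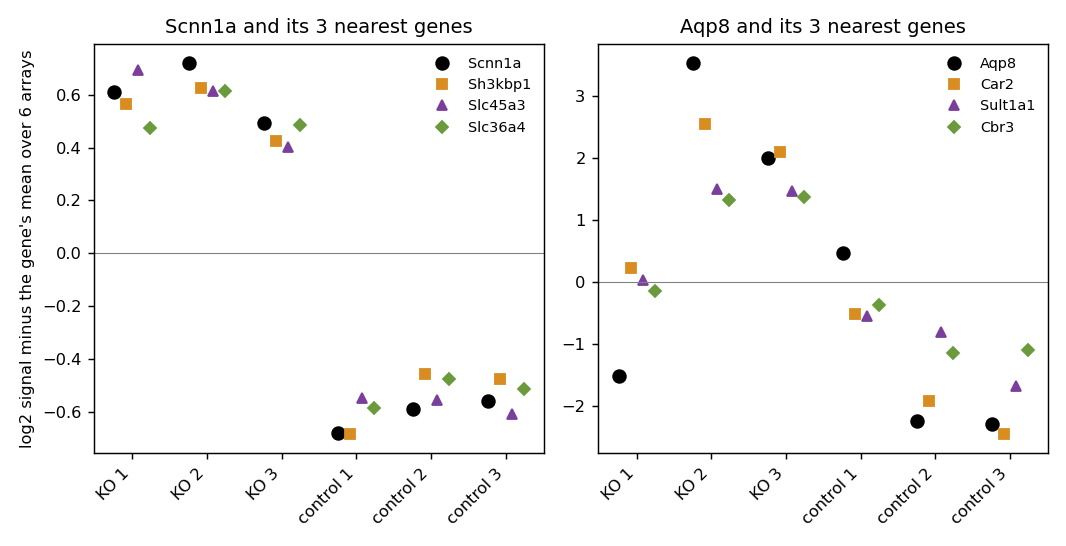
Log2 signal minus each gene's mean over the 6 arrays (y axis) for Scnn1a (left) and Aqp8 (right) with their 3 nearest genes, by array (x axis). The genes near Scnn1a, with log2 fold changes of 1.05 to 1.14, follow it closely, and those near Aqp8 lie at distances of 2.27 to 3.24. Distances are not scaled to the spread of a gene.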

How the data were processed

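Total RNA of whole ileum was hybridised to Affymetrix Mouse Gene 1.0 ST arrays, 1 per mouse, per the labels' protocols. As deposited, the values are log2 signals for each probe set. The submitters' processing notes name Affymetrix Expression Console. How it corrected, normalized and summarised the probes is not stated here, and base 2 was taken from the size of the values. Of 35557 probe sets, 21789 had 1 gene symbol, 1621 several (not used) and 12147 were not listed. The brightest probe set per gene by its mean over the 6 arrays gave 19938 genes, of which 999 had more than 1, without a filter on dim genes.

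Gata6 KO was set against control with limma 3.58.1 in R 4.3.3 (lmFit, eBayes, two-sided, Benjamini-Hochberg over all genes), tested on simulated data; SE is moderated. The labels give separate mice and do not state that replicate numbers pair them, so no pairing entered the main fit. Same-numbered arrays' deviations correlated at 0.043, -0.04 and 0.153, which cannot settle whether the numbers pair mice. Members and the 7 companion and 11 marker lists were chosen with earlier results of these data known. Some listed genes were not analysed here. Named were all members and both channel families, Gata6, up to 4 called genes with the smallest p per list (all where 5 or fewer), and the genes most like the member with the largest called change in each direction; none was called lower. Other genes that did not pass were named after their values were seen. Alternatives covered scaling, dim genes, probe sets, moderation, weights, block and leaving out each array. Figures used matplotlib 3.10.9.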

Additional observations from a re-analysis of the deposited data

How the results depend on the processing

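Scnn1a, Hsd11b2, Usp2 and Slc5a1 kept direction and call in all 15 alternatives, with log2 fold changes of 1.15 to 1.27, 1.74 to 1.93, -0.85 to -0.71 and -1.13 to -1.03. The number of the 9 genes called higher stayed at 1 throughout, and the number called lower was 0 without each array. It was 1, Aqp7, with genes at or above the median level only, and 2, Aqp4 and Aqp7, with the replicate number as a block (adjusted p 0.0278 and 0.0285); the block also left no protease called, and gave 2 glycerol genes higher and 1 lower. The numbers are not shown to pair the mice, and among arrays with the same number only the third pair deviated together beyond 0.1. Over all genes, 995 higher and 648 lower became 419 and 298 with every probe set in 1 fit, 168 and 106 without moderation, and 320 to 806 and 277 to 597 without 1 array. With every probe set in 1 fit, 1 ENaC control gene and no protease were called higher and 1 glycerol gene lower. Without moderation these counts were 1, 0 and 0, with 0 glycerol and 0 ion transport genes higher and 1 ion transport gene lower. Median centring and quantile normalization each added 1 lower gene, Aqp5, among the other aquaporins, and moved the median of all genes by less than 0.1. Genes at or above the median level gave 1 sodium pump, 3 glycerol and 2 ion transport genes higher; robust moderation gave 3 and 2 of the last 2 lists, array weights 2 and 2, and averaged probe sets 1 sodium pump gene. Without 1 array, ENaC control genes called higher ranged from 1 to 4, proteases from 0 to 1, glycerol genes from 1 to 2 in both directions, and ion transport genes from 1 to 2 higher and 1 to 3 lower. Signs turned for genes near 0: with median centring for Scnn1b (-0.021) and Asic1 (-0.016), with quantile normalization for Asic4 (0.028), and without 1 array for Scnn1b (-0.039 to 0.123), Scnn1g (-0.021 to 0.108), Aqp9 (-0.063 to 0.188), Aqp12 (-0.124 to 0.054) and Asic1 (-0.042 to 0.132). The cause of these changes was not tested, beyond fewer arrays or genes entering a fit. The number of arrays and dim signal limit what could be seen. Aqp3, Scnn1b and Scnn1g were below the array median on all 6 arrays, and Aqp7 on the 3 KO-labelled arrays. Aqp8 was below it on Gata6 KO replicate 1 and control replicates 2 and 3. In simulations of this comparison over 19938 genes, 48.7% of changes of 0.5 and 97.6% of changes of 1 on the log2 scale were found. These are averages over genes drawn at random, with normal noise and no weakening of dim signals. They do not give the share for a dim gene, or for one of wide spread such as Aqp8 (SE 1.30).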
